A study of Mus musculus with 2 samples.

Results

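The genes of the mineralization and phosphate machinery described here are 10 of the 32293 genes measured. They are Alpl, Phospho1, Smpd3, Enpp1, Ank, Slc20a1, Slc20a2, Ibsp, Spp1 and Fam20c. They were taken by name from the gene list, and their RNA and the chromatin accessibility within 50 kb of their starts were compared across 6 classes of skeletal nuclei. The nuclei came from femurs taken at postnatal day 21, from mice of the genotype Prrx1-cre; R26R(tdTomato/+), with males and females of a litter pooled and the distal growth plates removed. All of these mice carry the Cre and the reporter, and no other genotype, treatment or age was analysed here. Prrx1-cre acts in limb mesenchyme, so the red protein tdTomato marks most skeletal and stromal lineages of the femur rather than a single cell type, and the sorted tdTomato+ cells went through single-nucleus RNA and ATAC sequencing of the same nuclei (10x Multiome). There was 1 library for each measurement, so no spread between animals could be had, no test was run, and every interval below is a 95% interval for counting error only.

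Bone mineral is laid down when phosphate and calcium reach a critical product outside the cell, and pyrophosphate stops the crystals from growing. Alpl cleaves pyrophosphate and frees phosphate, whereas Enpp1 makes pyrophosphate outside the cell and Ank lets it, or the ATP it is made from, leave the cell. Phospho1 and Smpd3 provide phosphate and phosphocholine from membrane lipids, Slc20a1 and Slc20a2 carry phosphate into cells, and Ibsp and Spp1 are acidic, phosphorylated matrix proteins that Fam20c phosphorylates. In bone these genes are known from osteoblasts, osteocytes and hypertrophic chondrocytes.

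Of 728634 barcodes, 4489 were kept as nuclei, with medians of 2121 RNA molecules (unique molecular identifiers, UMIs) and 32849 ATAC counts. Marker genes put 1212 nuclei into the 6 skeletal classes. These were 516 osteoblast-like, 65 osteocyte-like, 46 intermediate-like (markers of both osteoblasts and reticular cells), 448 reticular-like, 102 chondrocyte-like and 35 hypertrophic-like nuclei. The ending "-like" is dropped below. A further 576 nuclei carried blood cell markers although the label names stromal cells, and 2562 nuclei met no marker rule. Median UMIs per nucleus were 15152 in hypertrophic, 9101 in chondrocyte, 6446 in osteocyte, 6388 in osteoblast, 4387.5 in intermediate and 1870.5 in reticular nuclei. No limit was set on mitochondrial RNA, and its median share differed between classes, at 24.2% in chondrocyte, 19.3% in osteoblast, 17.7% in hypertrophic, 17.1% in osteocyte, 8.46% in intermediate and 7.43% in reticular nuclei. The osteocyte class carried Dmp1 at 4036 CPM and Phex at 2587 CPM (CPM, UMIs per 1000000 UMIs of nuclear genes), but only 9 UMIs of Sost and 18 of Mepe. The hypertrophic class carried Col10a1 at 12532 CPM, against 2336 CPM in the chondrocyte class, and Mmp13 was highest in the intermediate class at 2185 CPM. The intermediate class was also mixed by clustering: 26 of its 46 nuclei lay in a reticular cluster and 9 in the cluster with both marker sets.

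RNA levels are CPM summed over the nuclei of a class, and each class was set against the sum of the 5 others. A gene was called higher or lower when the 2 sums differed at least 2-fold, on at least 20 UMIs in all. In all, 9 members passed that minimum and Phospho1 did not. Osteocyte nuclei had 3 members higher and 4 lower, where 5.79% and 25.2% of 11218 genes were. Hypertrophic nuclei had 3 higher and 1 lower, with 17.3% and 15.8% of all genes called. Chondrocyte nuclei had 2 higher and 2 lower, beside 13.8% and 16.9% of all genes. Osteoblast nuclei had 1 higher and 5 lower, beside 4.06% and 24.5%. Intermediate nuclei had 1 higher and 3 lower, beside 21.4% and 11.6%. Reticular nuclei had 0 higher and 5 lower, beside 22.4% and 11.0%. The median log2 ratio of the 9 members lay below that of all genes in osteoblast (-1.34, all genes -0.41), reticular (-1.38, all genes 0.39) and intermediate nuclei (-0.56, all genes 0.34), and above it in osteocyte (0.34, all genes -0.34), chondrocyte (0.49, all genes 0.02) and hypertrophic nuclei (0.39, all genes 0.19). Over all classes the 9 members had 10 higher calls, where 11174 genes with enough counts in both RNA and accessibility had 9450. Spp1 had none of the 10, while Ibsp and Fam20c were higher in both osteocyte and hypertrophic nuclei.

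**Figure D1:**
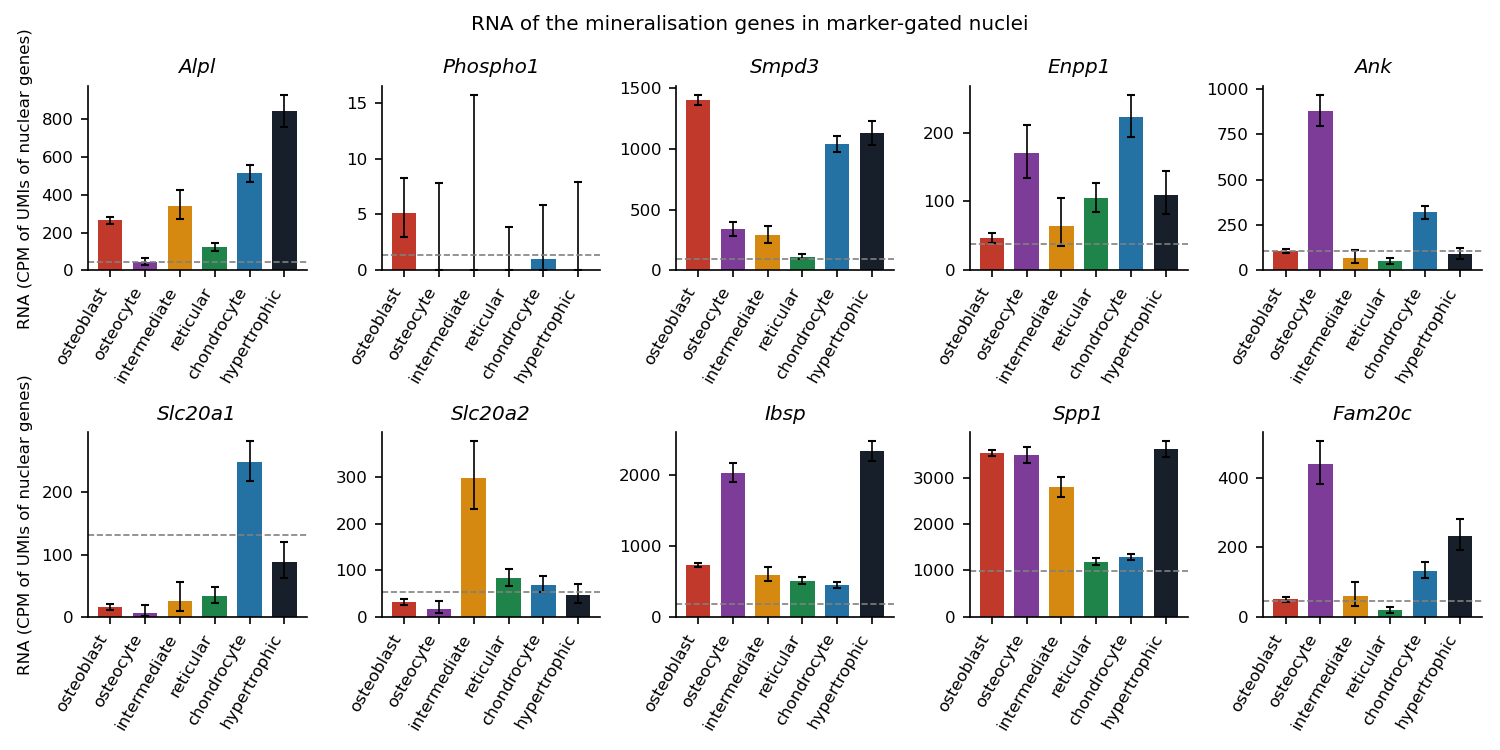
RNA level of each gene (CPM, a panel for each gene) in the 6 skeletal classes, with bars for the summed level, error bars for the 95% counting interval and a grey dashed line at the level in the 576 blood nuclei. Alpl peaks in hypertrophic nuclei at 843 CPM, Smpd3 in osteoblast nuclei at 1403 CPM, Ank in osteocyte nuclei at 878 CPM, Slc20a1 in chondrocyte nuclei at 248 CPM and Slc20a2 in intermediate nuclei at 298 CPM.

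Among the enzymes that release phosphate, Alpl, the tissue-nonspecific alkaline phosphatase, was highest in hypertrophic nuclei and lowest in osteocyte nuclei. Its level was 843 CPM in hypertrophic nuclei (interval 762 to 931), 514 in chondrocyte, 341 in intermediate, 265 in osteoblast, 123 in reticular and 42.4 CPM in osteocyte nuclei (25.9 to 65.5). The neighbours in that order were separated by their counting intervals, apart from the intermediate class (270 to 424), whose interval overlapped that of the osteoblast class (248 to 284). Hypertrophic nuclei stood 3.15-fold above the other classes (843 against 268 CPM, log2 ratio 1.66). Osteocyte nuclei stood below the other classes, at 42.4 against 331 CPM (log2 ratio -2.93). That level came from 20 UMIs, of which 1 nucleus held 50%, and it was close to the 44.4 CPM of blood nuclei. Reticular nuclei were also lower, at 123 against 343 CPM (log2 ratio -1.48).

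Phospho1, the phosphatase that frees phosphate from phosphocholine and phosphoethanolamine, gave too few molecules to compare. It had 17 UMIs in osteoblast nuclei, each in a different nucleus, which is 5.17 CPM (3.01 to 8.28). Chondrocyte nuclei had 1 UMI. The other 4 classes had 0 UMIs. A floor of 3 counts equals 3.14 CPM in reticular, 6.36 in osteocyte, 6.44 in hypertrophic and 12.8 CPM in intermediate nuclei. A level like that of osteoblasts was thus not detectable in 3 of them at this depth.

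Smpd3, the neutral sphingomyelinase that splits sphingomyelin into ceramide and phosphocholine, was highest in osteoblast nuclei. It reached 1403 CPM in osteoblast nuclei (1363 to 1444), against 601 CPM in the other classes, a 2.33-fold difference (log2 ratio 1.22). Hypertrophic nuclei (1127 CPM, 1032 to 1227) and chondrocyte nuclei (1038 CPM, 974 to 1104) came next and did not differ beyond their intervals. At 10% mitochondrial UMIs or less, the 6 hypertrophic nuclei had 1522 CPM (1297 to 1775) and the 94 osteoblast nuclei 1240 CPM (1162 to 1322), and Smpd3 was then called higher in hypertrophic nuclei as well (log2 ratio 1.23). Smpd3 was lower in osteocyte nuclei (337 against 1069 CPM), in intermediate nuclei (290 against 1043 CPM) and in reticular nuclei (113 against 1174 CPM, log2 ratio -3.37). In osteocyte nuclei 44.0% of the UMIs lay in 1 nucleus, and the call was lost with nuclei over 10% mitochondrial UMIs left out (log2 ratio -0.56). The reticular level was near the 95.8 CPM of blood nuclei.

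The chromatin around Smpd3 was likewise most open in osteoblast nuclei. The peak with the strongest osteoblast preference lay 48002 bp upstream of the start, inside the long noncoding RNA gene Gm26786 but in none of its exons. It held 28.6 CPM of ATAC counts in osteoblast nuclei, against 1.47 CPM in the other classes, a 19.2-fold difference. Its central 200 bases, chr8:106385891-106386090 of GRCm38 (the same assembly as mm10), are shown because they carry the largest osteoblast difference near any of the 10 genes. They are written on the minus strand, that of Smpd3, with a MEF2-type motif (CTANNNNTAG) in capitals.
Smpd3 peak: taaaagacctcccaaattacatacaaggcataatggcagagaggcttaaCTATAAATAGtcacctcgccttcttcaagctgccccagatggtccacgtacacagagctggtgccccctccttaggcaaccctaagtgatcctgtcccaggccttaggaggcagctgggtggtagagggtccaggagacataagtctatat

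Enpp1 and Ank, the suppliers of pyrophosphate, were distributed differently from Alpl. Enpp1, the ectoenzyme that cuts ATP into AMP and pyrophosphate, was highest in chondrocyte nuclei. It reached 223 CPM there (194 to 255), against 73.7 CPM in the other classes (3.03-fold, log2 ratio 1.60). It was 568 CPM in the 8 chondrocyte nuclei at 10% mitochondrial UMIs or less, 195 CPM between 10% and 20% and 174 CPM above 20%. With nuclei over 10% left out the log2 ratio was 2.57, and by clusters it was 1.09, below the 1.63 of the hypertrophic class. Osteocyte nuclei followed with 170 CPM (135 to 211), an interval that overlapped the chondrocyte one. Hypertrophic nuclei had 109 CPM (81.5 to 144) and reticular nuclei 105 CPM (85.3 to 127), which did not differ beyond counting error. Osteoblast nuclei had the least, 46.5 CPM against 149 CPM in the other classes (log2 ratio -1.68), close to the 38.8 CPM of blood nuclei. Among blood classes, macrophage or osteoclast nuclei had 80.9 CPM of Enpp1.

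Ank, the membrane protein of the progressive ankylosis mouse, was highest in osteocyte nuclei among the skeletal classes. It reached 878 CPM in osteocyte nuclei (795 to 967), against 129 CPM in the other classes, a 6.83-fold difference (log2 ratio 2.77). One osteocyte nucleus held 35.3% of those UMIs. With the Ank UMIs of the top nucleus of each class left out, the difference was 5.20-fold (log2 ratio 2.38). Osteocyte Ank was 1672 CPM at 10% mitochondrial UMIs or less (16 nuclei), 316 CPM between 10% and 20% (26 nuclei) and 662 CPM above 20% (23 nuclei), and with nuclei over 10% left out the log2 ratio was 4.18. The part of mitochondrial RNA in this level was not tested, and the call was kept at every limit tried. Chondrocyte nuclei had 319 CPM (284 to 357), against 160 CPM in the other classes, which at 1.99-fold fell just short of a call. Ank was lower in osteoblast (106 against 268 CPM), hypertrophic (90.1 against 192 CPM), intermediate (68.2 against 189 CPM) and reticular nuclei (50.3 against 208 CPM). The hypertrophic call was narrow, at a log2 ratio of -1.07, and was lost without the Ank UMIs of the top nucleus of each class (-0.97). Outside the skeleton, erythroid nuclei carried Ank at 308 CPM (252 to 373), as much as chondrocyte nuclei within counting error.

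The 2 sodium-phosphate cotransporters that bring phosphate into cells split between classes. Slc20a1 (PiT-1) had the largest ratio among the members called higher by gate. It reached 248 CPM in chondrocyte nuclei (217 to 282), against 24.6 CPM in the other classes (10.1-fold, log2 ratio 3.33). Hypertrophic nuclei had 88.0 CPM (63.1 to 119), reticular 33.5, intermediate 25.6, osteoblast 15.5 and osteocyte nuclei 6.36 CPM, the last from 3 UMIs (1.31 to 18.6). It was lower in osteoblast (15.5 against 103 CPM), osteocyte (6.36 against 62.2 CPM) and intermediate nuclei (25.6 against 59.3 CPM). The intermediate call rested on 6 UMIs and was lost with nuclei over 10% (log2 ratio -0.90) or 20% mitochondrial UMIs left out (-0.35), with a stricter gate (-0.042) and by clusters (0.064). The osteoblast call was lost at the 10% limit (-0.90). By clusters the chondrocyte log2 ratio was 2.42, and the hypertrophic class had 2.51, with 358 CPM in its 46 nuclei. Blood nuclei carried more of it than 5 of the skeletal classes, with 131 CPM over all and 220 CPM in erythroid nuclei, so its levels in the osteoblast, osteocyte, intermediate and reticular classes lay below that of blood nuclei. Within the chondrocyte class Slc20a1 moved with mitochondrial RNA: 65 nuclei over 20% mitochondrial UMIs had 378 CPM (322 to 441), 29 nuclei between 10% and 20% had 143 CPM (110 to 183), and 8 nuclei at 10% or less had 158 CPM (88.3 to 260). The part of mitochondrial RNA in this level was not tested.

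A distal peak near Slc20a1 showed the same preference. It lay 5986 bp upstream of the start, between genes, and held 23.0 CPM in chondrocyte nuclei, against 1.79 CPM in the other classes (12.8-fold). Its central 200 bases are chr2:129192679-129192878 of GRCm38, plus strand, shown because it stands beside the largest ratio in RNA, with a RUNX-type motif (TGTGGT) in capitals.
Slc20a1 peak: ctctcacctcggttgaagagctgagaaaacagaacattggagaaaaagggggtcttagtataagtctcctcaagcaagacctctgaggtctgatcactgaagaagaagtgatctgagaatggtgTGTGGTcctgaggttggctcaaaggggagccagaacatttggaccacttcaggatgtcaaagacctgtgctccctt

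Slc20a2 (PiT-2) was instead highest in intermediate nuclei. It reached 298 CPM there (232 to 377), against 45.1 CPM in the other classes, a 6.64-fold difference (log2 ratio 2.73) that rested on 70 UMIs, with 17.1% of them in 1 nucleus. Reticular nuclei had 82.8 CPM (65.6 to 103), chondrocyte 69.0 (53.4 to 87.8) and hypertrophic nuclei 47.2 CPM (29.6 to 71.5), neighbours that did not differ beyond their intervals. It was lower in osteoblast (31.0 against 79.5 CPM) and osteocyte nuclei (17.0 against 57.5 CPM), with 8 UMIs in osteocytes. Blood nuclei had 54.3 CPM. The peak with the strongest intermediate preference lay 2628 bp downstream of the start, in an intron of Slc20a2, with 8.75 CPM in intermediate nuclei from 18 counts, against 1.26 CPM in the other classes (7.11-fold). Its central 200 bases, chr8:22479317-22479516 of GRCm38, plus strand, hold none of the 4 motifs searched and are shown as the intermediate counterpart of the Slc20a1 peak.
Slc20a2 peak: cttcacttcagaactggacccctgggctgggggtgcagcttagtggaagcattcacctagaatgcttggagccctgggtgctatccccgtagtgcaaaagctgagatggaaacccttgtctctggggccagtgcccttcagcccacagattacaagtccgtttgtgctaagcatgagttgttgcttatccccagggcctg

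Ibsp and Spp1, the genes of bone sialoprotein and osteopontin, lie in the same cluster of bone matrix protein genes on chromosome 5. Ibsp was highest in hypertrophic nuclei, at 2333 CPM (2196 to 2475), against 749 CPM in the other classes (3.11-fold, log2 ratio 1.64). It was also higher in osteocyte nuclei, at 2032 CPM (1905 to 2164), against 772 CPM in the other classes (2.63-fold, log2 ratio 1.40). Hypertrophic and osteocyte nuclei were close, although their intervals did not overlap. Osteoblast nuclei had 732 CPM (703 to 762), intermediate 596, reticular 511 and chondrocyte nuclei 451 CPM, and the chondrocyte value was called lower (451 against 938 CPM, log2 ratio -1.06). All of these were above the blood nuclei, whose classes had 156 to 229 CPM. A single nucleus held 25.2% of the hypertrophic UMIs, and without the Ibsp UMIs of the top nucleus of each class the difference was 2.55-fold.

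Ibsp in cartilage also moved with mitochondrial RNA, in opposite directions in the 2 cartilage classes. In hypertrophic nuclei it was 4045 CPM above 20% mitochondrial UMIs (16 nuclei), 1589 CPM between 10% and 20% (13 nuclei) and 1832 CPM at 10% or less (6 nuclei). In chondrocyte nuclei it was 207 CPM above 20%, 511 CPM between 10% and 20% and 1252 CPM at 10% or less. With nuclei over 20% left out, the hypertrophic difference was 1.96-fold and the chondrocyte log2 ratio -0.55, so neither was called, and with nuclei over 10% left out the chondrocyte log2 ratio was 0.49. The order of the highest classes also turned: at 20% or less hypertrophic nuclei had 1666 CPM (1531 to 1810) and osteocyte nuclei 2263 CPM (2115 to 2418), and at 10% or less hypertrophic nuclei had 1832 CPM and osteocyte nuclei 2330 CPM. The part of mitochondrial RNA in these differences was not tested.

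The promoter of Ibsp and a distal peak are shown because the accessibility of both differed between classes. The peak nearest its start (centre 20 bp downstream) was the only start peak of the 10 genes that was called, with 23.5 CPM in osteoblast nuclei, against 10.2 CPM in the other classes (2.30-fold). The 134 bases up to the annotated start, chr5:104299037-104299170 of GRCm38 on the plus strand (RefSeq promoter table), hold none of the motifs. The distal peak lay 13282 bp downstream of the start, beyond the gene's end, with 21.3 CPM in osteocyte nuclei, against 1.80 CPM in the other classes (11.9-fold). The window around Ibsp also holds the start of Mepe, a marker of the osteocyte gate. The central 200 bases of the distal peak, chr5:104312354-104312553, plus strand, have a homeodomain-type motif (TAATTA) in capitals.
Ibsp promoter: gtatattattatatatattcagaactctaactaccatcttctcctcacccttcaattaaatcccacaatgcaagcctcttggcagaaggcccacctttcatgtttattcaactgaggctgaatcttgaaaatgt
Ibsp peak: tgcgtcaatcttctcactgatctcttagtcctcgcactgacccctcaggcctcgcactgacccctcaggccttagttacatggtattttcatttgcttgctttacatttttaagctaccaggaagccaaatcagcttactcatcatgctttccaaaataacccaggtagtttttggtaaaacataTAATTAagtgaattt

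Spp1 was the one member past the minimum that was higher in no gated class. It passed 2-fold under other settings, in hypertrophic (log2 ratio 1.99) and intermediate nuclei (1.19) with classes by clusters, and in osteoblast nuclei (1.11) with nuclei over 10% mitochondrial UMIs left out. By gate it had 3605 CPM in hypertrophic nuclei (3435 to 3782), 3521 in osteoblast (3457 to 3586), 3491 in osteocyte (3324 to 3664) and 2799 CPM in intermediate nuclei (2589 to 3021), and the first 3 did not differ beyond counting error. It was lower in chondrocyte nuclei (1290 against 3084 CPM) and in reticular nuclei (1191 against 3101 CPM). Both of those levels lay within the 886 to 1354 CPM of the blood classes. Free RNA had 4008 CPM of Spp1 and 814 CPM of Ibsp. These are not directly comparable with the classes, since Gm42418 made up 61.0% of free RNA and 30.8% of the UMIs of nuclei. Without Gm42418, free RNA had 10270 CPM of Spp1 and 2087 CPM of Ibsp. Beyond the subtraction given at the end, the part of free RNA in these levels was not tested. Spp1 was not even within either class: it was 1876 CPM in chondrocyte nuclei between 10% and 20% mitochondrial UMIs, against 768 CPM at 10% or less and 794 CPM above 20%, and 2185 CPM in reticular nuclei above 20%, against 955 CPM at 10% or less. The chondrocyte call was narrowly lost with nuclei over 20% left out (log2 ratio -0.96). In the hypertrophic class 28.5% of the Spp1 UMIs came from 1 nucleus. Most nuclei of that class lay in the chondrocyte cluster, as described below, and these had less Spp1 than the 1290 CPM of the chondrocyte class. The hypertrophic level is thus a sum over unlike nuclei, and its interval covers counting error only. The 250 bases before the start of Spp1, chr5:104434861-104435110 of GRCm38, plus strand (RefSeq), are shown as the promoter of the member with the most UMIs. A RUNX-type motif, here on the other strand as ACCACA, is in capitals.
Spp1 promoter: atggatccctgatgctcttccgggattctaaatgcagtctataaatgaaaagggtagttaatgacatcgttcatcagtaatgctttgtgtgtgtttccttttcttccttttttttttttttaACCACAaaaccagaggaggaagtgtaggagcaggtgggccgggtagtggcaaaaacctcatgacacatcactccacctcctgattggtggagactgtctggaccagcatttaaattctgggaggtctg

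Fam20c, the Golgi kinase that phosphorylates secreted proteins such as osteopontin and bone sialoprotein, was highest in osteocyte nuclei among the gated classes. It reached 441 CPM in osteocyte nuclei (383 to 505), against 73.4 CPM in the other classes (6.02-fold, log2 ratio 2.59). Without the Fam20c UMIs of the top nucleus of each class, the difference was 6.30-fold. Hypertrophic nuclei had 234 CPM (192 to 282), against 90.1 CPM in the other classes (2.61-fold). That second call was lost with nuclei over 20% mitochondrial UMIs left out (1.92-fold), with a stricter gate (1.57-fold) and with equal weight for the other classes (1.66-fold). Chondrocyte nuclei had 133 CPM. Fam20c was lower in osteoblast (50.2 against 154 CPM) and reticular nuclei (18.9 against 115 CPM), and of the 14 UMIs in intermediate nuclei 92.9% came from 1 nucleus. Macrophage or osteoclast nuclei had 105 CPM. A cluster of 46 nuclei led by F13a1 and Mmp13, described below, had more Fam20c than the osteocyte class, at 969 CPM (847 to 1105).

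The chromatin upstream of Fam20c showed the strongest osteocyte preference of the 10 genes. A peak 29236 bp upstream of the start, between genes, held 23.1 CPM in osteocyte nuclei, against 0.85 CPM in the other classes (27.1-fold). Another, 18672 bp upstream, held 37.2 CPM in osteocyte nuclei, against 2.35 CPM in the other classes (15.9-fold). The central 200 bases of the first, chr5:138725179-138725378 of GRCm38, plus strand, carry an AP-1-type motif (TGANTCA) in capitals.
Fam20c peak: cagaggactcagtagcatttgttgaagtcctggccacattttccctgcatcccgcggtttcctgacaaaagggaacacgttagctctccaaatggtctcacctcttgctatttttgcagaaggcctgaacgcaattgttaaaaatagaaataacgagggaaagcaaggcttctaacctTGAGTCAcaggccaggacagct

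Shares within groups of genes with opposed roles put these levels side by side. They are shares of UMIs, not of molecules per gene length, so they are compared only between classes. Of the UMIs of Alpl, Enpp1 and Ank together, Alpl made up 80.9% in hypertrophic (77.1 to 84.3), 72.1% in intermediate (62.8 to 80.2), 63.5% in osteoblast (60.9 to 66.1), 48.7% in chondrocyte (45.5 to 51.8), 44.2% in reticular (38.1 to 50.4) and 3.89% in osteocyte nuclei (2.39 to 5.95). Free RNA, measured in near-empty barcodes, had 61.4%. Osteocyte nuclei stood apart from the other gated skeletal classes, with Enpp1 and Ank making up nearly all of the 3 genes' molecules. In the Mmp13 cluster described below, Ank exceeded Alpl as well. The hypertrophic shares in this paragraph pool nuclei of different clusters and were not computed for each cluster. Erythroid nuclei were also low, at 9.09% (4.63 to 15.7), an interval that overlapped the osteocyte one. Of the UMIs of both transporters, Slc20a1 made up 78.2% in chondrocyte (73.1 to 82.7), 65.1% in hypertrophic (52.0 to 76.7), 33.3% in osteoblast, 28.8% in reticular, 27.3% in osteocyte (6.02 to 61.0) and 7.89% in intermediate nuclei (2.95 to 16.4). Free RNA had 44.0%. Of the UMIs of Ibsp and Spp1, Ibsp made up 39.3% in hypertrophic (37.5 to 41.1), 36.8% in osteocyte (34.9 to 38.7), 30.05% in reticular (27.8 to 32.3), 25.9% in chondrocyte (23.8 to 28.1), 17.6% in intermediate and 17.2% in osteoblast nuclei, and free RNA had 16.9%.

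**Figure D2:**
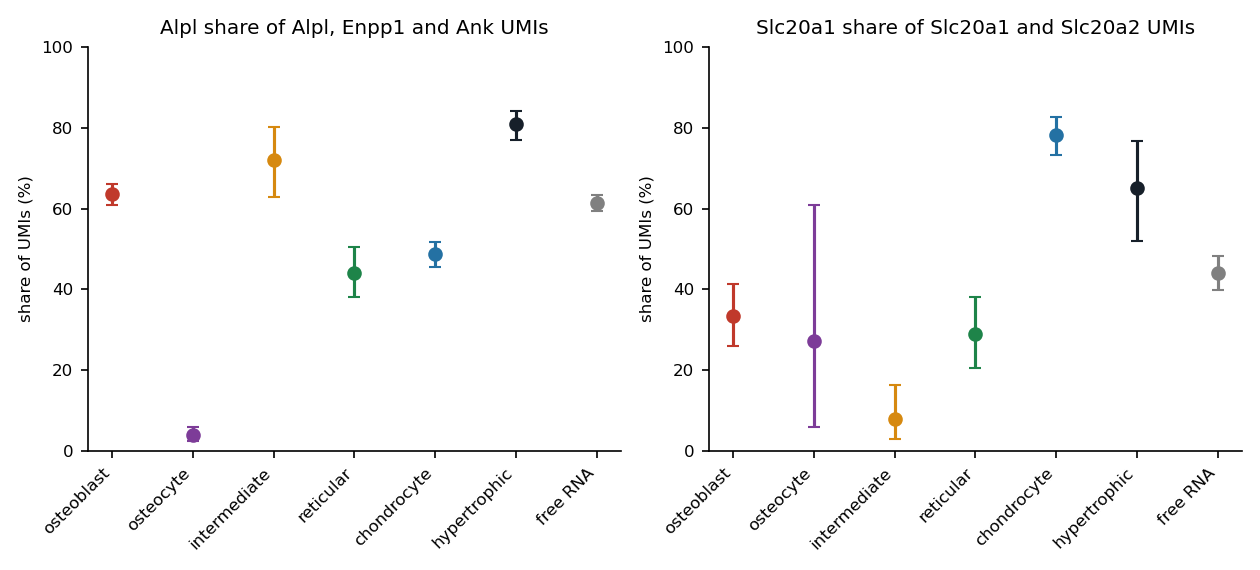
Share of UMIs (%) taken by Alpl among Alpl, Enpp1 and Ank, and by Slc20a1 among both Slc20a transporters, in each class and in free RNA, with exact binomial 95% intervals as error bars. The Alpl share is 3.89% in osteocyte nuclei and 80.9% in hypertrophic nuclei, and the Slc20a1 share is 78.2% in chondrocyte nuclei and 7.89% in intermediate nuclei. The hypertrophic class pools nuclei of different clusters.

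Accessibility was summed over all peaks within 50 kb of each start, as CPM of the ATAC counts in peaks, and a window was called at 1.5-fold on at least 100 counts. All 10 windows passed the minimum. In osteoblast nuclei 3 windows were more accessible and 1 less, where 9.44% and 12.9% of 26929 windows were. These were Smpd3 (296 against 99.7 CPM, 2.97-fold), Ibsp (155 against 83.7 CPM, 1.85-fold) and Phospho1 (393 against 247 CPM, 1.59-fold), with Enpp1 less accessible (43.8 against 80.9 CPM). In osteocyte nuclei 2 were more and 0 less accessible, beside 5.92% and 13.9% of all windows, namely Fam20c (217 against 81.7 CPM, 2.66-fold) and Ibsp (172 against 111 CPM, 1.56-fold). The Ank window was not (97.9 against 103 CPM), although Ank RNA differed 6.83-fold.

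The window of Slc20a2 was more accessible in intermediate nuclei (215 against 140 CPM, 1.54-fold) and that of Fam20c less so (55.9 against 90.2 CPM), beside 5.23% more and 10.1% less of all windows. In chondrocyte nuclei the Slc20a1 window was more accessible (149 against 95.6 CPM, 1.56-fold) and the Ibsp window less (76.3 against 119 CPM), beside 15.0% and 9.72%. In hypertrophic nuclei the Enpp1 window was more accessible (117 against 63.1 CPM, 1.86-fold), beside 15.0% of all windows. The Alpl window was the 1 that was less accessible there (125 against 217 CPM, log2 ratio -0.79), beside 11.4%, although Alpl RNA was highest in that class.

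Reticular nuclei had 5 windows that were less accessible and 1 that was more, beside 19.5% and 10.4% of all windows. The less accessible ones were Smpd3 (61.4 against 241 CPM), Fam20c (47.3 against 108 CPM), Ibsp (63.3 against 138 CPM), Phospho1 (190 against 365 CPM) and Ank (75.3 against 115 CPM), and Enpp1 was more accessible (84.2 against 56.1 CPM, log2 ratio 0.59, just past the threshold). The Spp1 window was called in no class, at 100.2 to 152 CPM. A gene was higher in RNA and more accessible in the same class in 5 pairs, which is 5 of the 10 RNA pairs and 5 of the 9 accessibility pairs. Phospho1, short of the RNA minimum, could not be in such a pair. Without it, 5 of 8 accessibility pairs (62.5%) had higher RNA. Over 11174 genes past both minima, 18.5% of the pairs of gene and class with higher RNA were also more accessible, and 51.8% of the more accessible pairs had higher RNA. With only 8 pairs, the members' share of accessibility pairs was near that of all genes. The 5 pairs are Smpd3 in osteoblast, Ibsp and Fam20c in osteocyte, Slc20a2 in intermediate and Slc20a1 in chondrocyte nuclei. Some windows also hold the starts of other coding genes, namely Abi3 and Gngt2 beside Phospho1, Smim19 beside Slc20a2, Mepe beside Ibsp and Pkd2 beside Spp1. Mepe is also a marker of the osteocyte gate, so the osteocyte value of the Ibsp window is not fully independent of the gate.

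**Figure D3:**
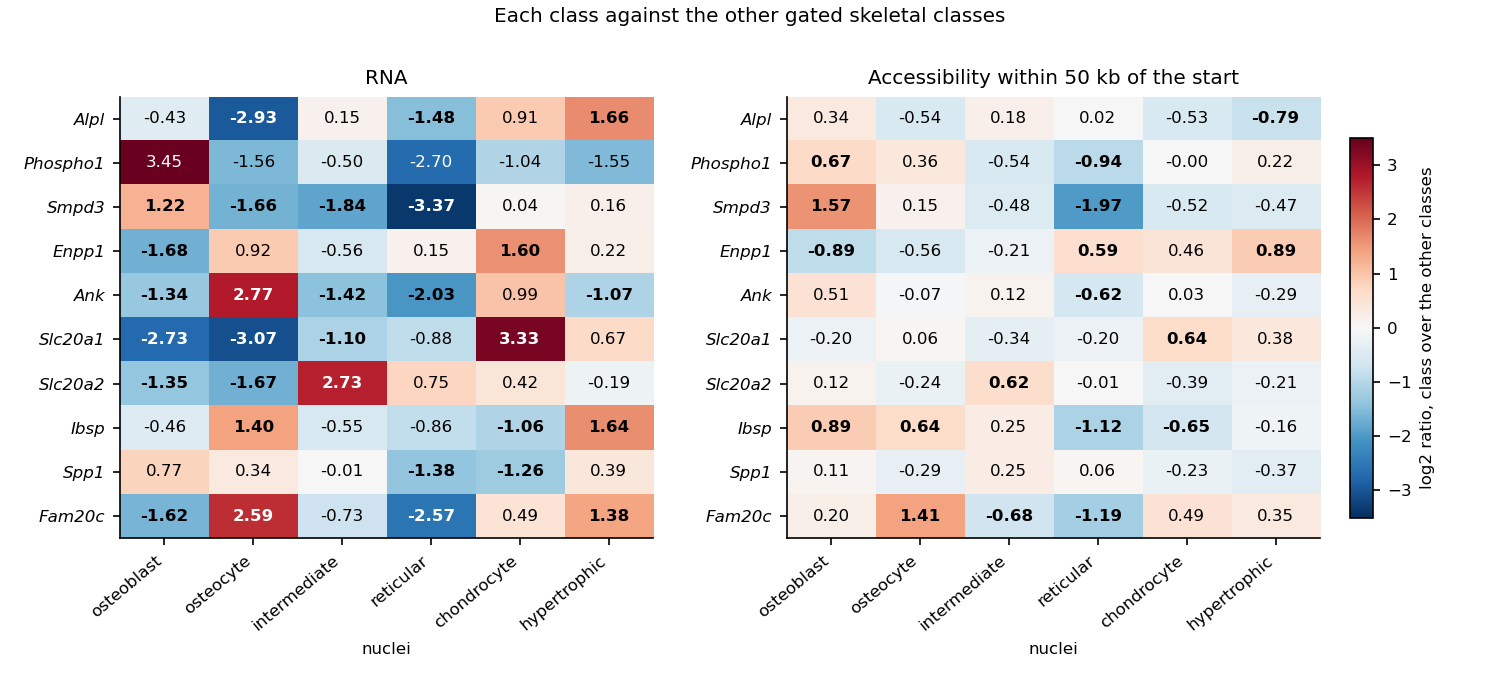
Log2 ratio of each class to the sum of the 5 others, for RNA and for accessibility within 50 kb, as colour with the value in each cell and called values in bold. Smpd3 in osteoblast nuclei is 1.22 in RNA and 1.57 in accessibility, Fam20c in osteocyte nuclei 2.59 and 1.41, and Alpl in hypertrophic nuclei 1.66 and -0.79.

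Single peaks showed where in each window the classes differed. Of 234 peaks in the windows, 150 were called in some class, at 2-fold on at least 50 counts, where 73.8% of 139824 peaks were. Out of the 234 peaks, 58 were called and led by osteoblast nuclei, where 17.3% of all 139824 peaks were. On the same bases, osteocyte nuclei led 23 (6.41%), reticular 22 (18.8%), chondrocyte 21 (14.7%), hypertrophic 15 (10.5%) and intermediate nuclei 11 (6.11%). Smpd3 had 21 called of 29 peaks, 15 of them led by osteoblasts, and Fam20c had 13 of 15, with 7 led by osteocytes. Ibsp had 21 of 27, with 10 led by osteoblasts and 7 by osteocytes. The peaks that differed were mostly away from the starts: 1 of the 10 peaks nearest the starts was called, where 26.7% of 16374 peaks within 1 kb of any start were, and 149 of the other 224 peaks (66.5%), where 80.1% of 123450 peaks farther than 1 kb from a start were.

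Several genes held peaks led by different classes in the same window. Alpl had a peak 33453 bp downstream of its start with 17.9 CPM in osteoblast nuclei, against 1.91 CPM in the other classes (9.32-fold), and one 12396 bp downstream with 39.5 CPM in reticular nuclei, against 9.26 CPM in the other classes. Enpp1 had a peak 27166 bp upstream led by chondrocyte nuclei (12.1 against 0.81 CPM, 14.9-fold), one 40136 bp downstream led by hypertrophic nuclei (14.7 against 1.01 CPM, 14.6-fold) and one 19424 bp upstream led by reticular nuclei (15.0 against 1.23 CPM, 12.0-fold). Of the 17 peaks around Enpp1, 12 were called, where 73.8% of all peaks were. Osteocyte nuclei led 2 of them and intermediate nuclei 1. Ank, whose RNA was highest in osteocyte nuclei, had its strongest peak 9236 bp upstream in chondrocyte nuclei (7.20 against 0.13 CPM, from 47 counts). Spp1 had a peak 36904 bp upstream led by reticular nuclei (11.0 against 1.18 CPM) and one 13433 bp downstream led by osteoblast nuclei (3.71 against 0.27 CPM, 13.1-fold).

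**Figure D4:**
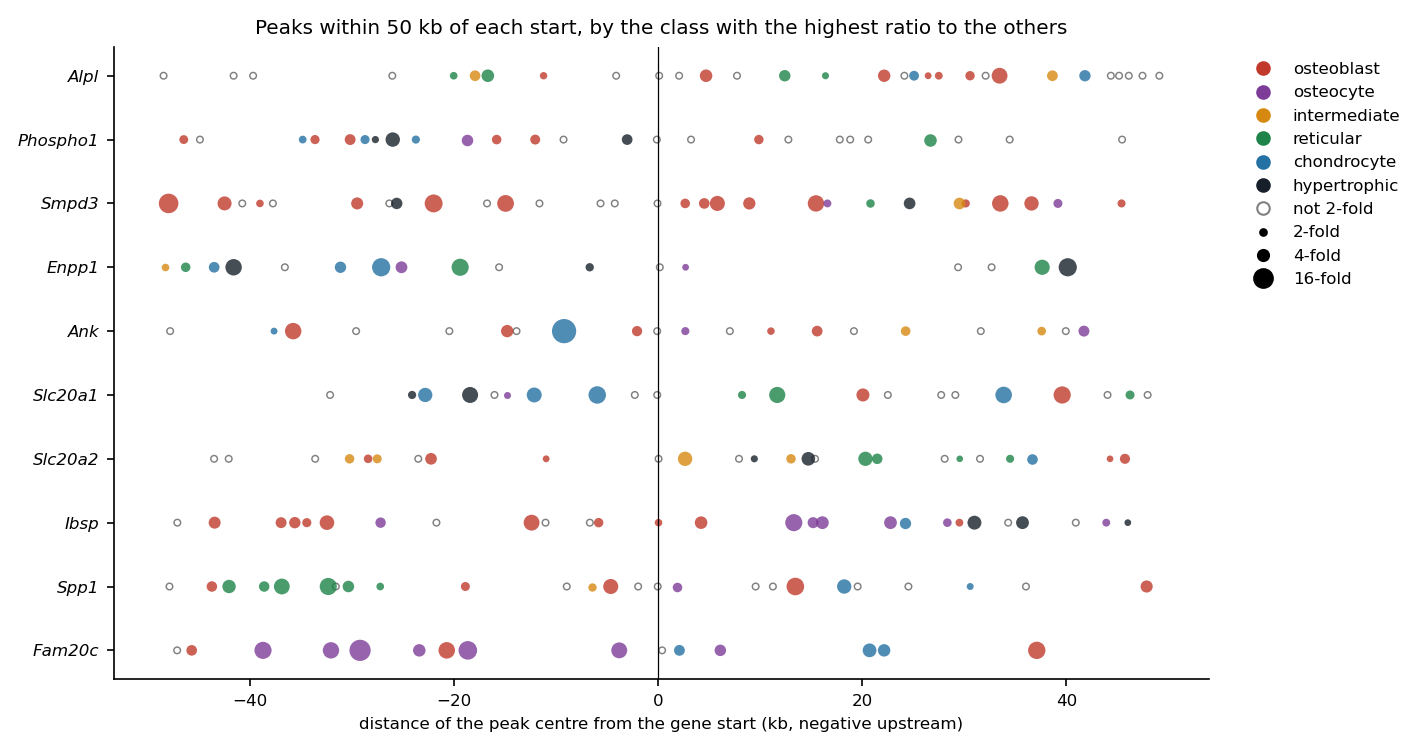
Peaks within 50 kb of each start, by distance from the start (kb, positive downstream on the gene's strand), coloured by the class with the highest ratio to the others and sized by that ratio, with open grey circles for peaks under 2-fold. Of 234 peaks 150 are coloured, and at the starts only the peak of Ibsp is.

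The 4 motifs were searched in the central 200 bases of each peak on both strands. A RUNX-type motif (TGTGGT) was in 51 of the 150 called peaks (34.0%), where 27.8% of 103231 called peaks and 25.1% of all 139791 peaks held one, and in 23 of the 58 osteoblast-led peaks (39.7%), where 33.6% of all osteoblast-led peaks did. An AP-1-type motif (TGANTCA) was in 25 (16.7%, all called peaks 17.2%). A homeodomain-type motif (TAATTA) was in 17 (11.3%, all called peaks 6.88%), but in 6 of the 58 osteoblast-led ones (10.3%), where 13.5% of all osteoblast-led peaks held it. A MEF2-type motif (CTANNNNTAG) was in 11 (7.33%, all called peaks 3.70%). In the RefSeq promoters the RUNX-type motif was in those of Enpp1, Slc20a1 and Spp1 (14.0% of 32851 promoters), the AP-1-type in that of Phospho1 (6.75%), the homeodomain-type in another listed promoter of Spp1 (4.84%) and the MEF2-type in none of the members (3.20%). A match describes letters and not a bound site.

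Most nuclei of the hypertrophic gate fell into 2 clusters, and the nuclei compared from these differed in most members. When nuclei were clustered with these genes left out, 25 of the 35 hypertrophic nuclei fell into the chondrocyte cluster, 6 into a small cluster of 46 nuclei led by F13a1, Pde11a and Mmp13, and 4 elsewhere. Of the 46 nuclei, 38 met no marker rule. Values for the 46 thus describe that cluster and not the 6 gated nuclei in it. The 46 nuclei carried Mmp13 at 4429 CPM, against 77.0 CPM in the 25, and Ihh at 25.9 CPM, against 426 CPM in the 25. Both carried Col10a1, at 4520 CPM in the 46 and 12010 CPM in the 25. Spp1 was 11065 CPM in the 46 (10641 to 11501), against 940 CPM in the 25 (846 to 1041), and Ank was 685 CPM in the 46 (583 to 800), against 64.2 CPM in the 25. Fam20c (969 against 139 CPM), Slc20a1 (358 against 64.2 CPM) and Enpp1 (310 against 89.9 CPM) were also higher in the 46. Alpl and Smpd3 ran the other way: Alpl was 151 CPM in the 46 (105 to 210), against 973 CPM in the 25 (878 to 1076), and Smpd3 was 263 CPM, against 1263 CPM. Ibsp was closer, at 1723 CPM in the 46, against 2542 CPM in the 25. With the 46 nuclei taken as the hypertrophic class, Alpl had a log2 ratio of -0.998, just short of a call, and Ank was higher (1.93), both of opposite sign to the values by gate. Fam20c (3.52), Slc20a1 (2.51) and Enpp1 (1.63) were also higher there, and Smpd3 was lower (-1.74). The 25 nuclei had Alpl as high and Ank as low as the gate, but their Fam20c, 139 CPM, was near the 133 CPM of chondrocyte nuclei.

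**Figure D5:**
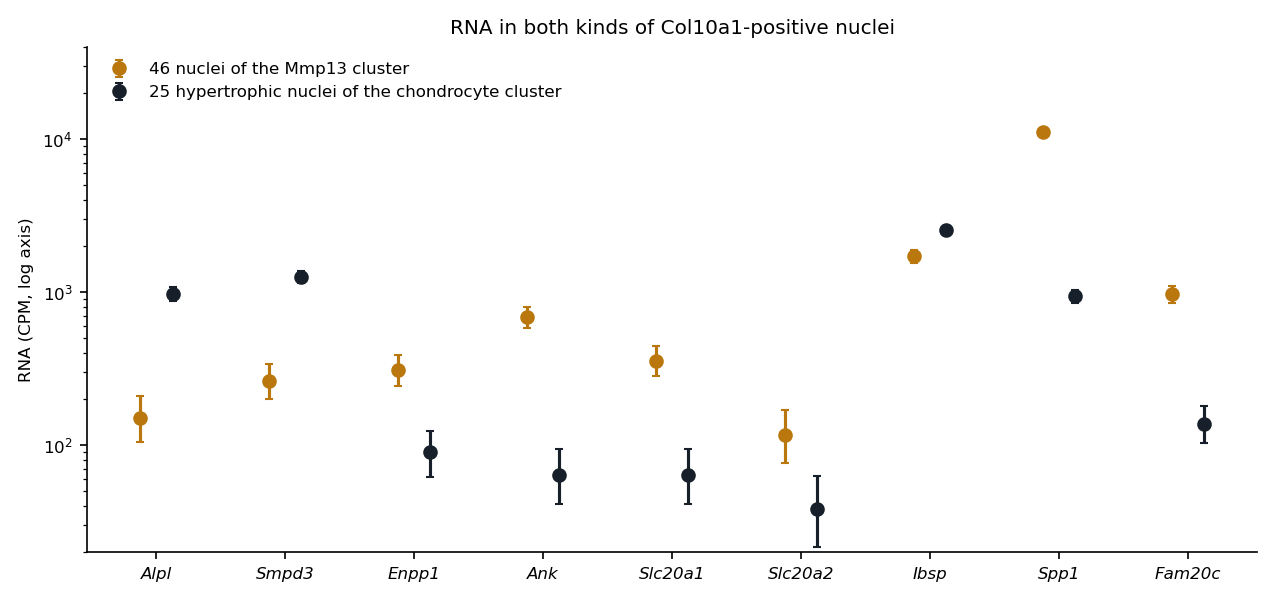
RNA level (CPM, log axis) of 9 members in the 46 nuclei of the Mmp13 cluster and in the 25 hypertrophic nuclei of the chondrocyte cluster, with 95% counting intervals. Spp1 is 11065 CPM in the 46 nuclei and 940 CPM in the 25, and Alpl is 151 CPM in the 46 and 973 CPM in the 25.

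A list of 32 other genes of phosphate, pyrophosphate and matrix mineralization gave 24 that passed the minimum. Hypertrophic nuclei had 6 higher and 4 lower, chondrocyte 6 and 8, osteocyte 4 and 4, intermediate 4 and 4, reticular 3 and 6 and osteoblast nuclei 1 and 9, to be read against the shares of all genes given above. In hypertrophic nuclei Enpp2, the lysophospholipase D autotaxin, was 268 against 25.1 CPM, and Nt5e, the ectoenzyme that frees phosphate from AMP, was 856 against 94.3 CPM. Fam20a, a partner protein of Fam20c, and Enpp3, an ectoenzyme related to Enpp1, had 0 UMIs there, where the floor of 3 counts equals 6.44 CPM. The other classes had 35.7 CPM of Fam20a and 10.3 CPM of Enpp3. In chondrocyte nuclei Nt5e was also higher (424 against 102 CPM), and Itgb3, an integrin subunit that binds osteopontin, was lower (2.09 against 15.9 CPM), as were Fam20a (9.41 against 37.3 CPM) and Enpp3 (1.05 against 11.1 CPM).

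In osteocyte nuclei Itgb3 was 74.2 against 8.98 CPM, and Cd44, a receptor for osteopontin and hyaluronan, was 1169 against 173 CPM. Itgav, the integrin subunit that pairs with Itgb3, was not called there (159 against 185 CPM, log2 ratio -0.21). Mgp, an inhibitor of calcification, was lower (72.1 against 361 CPM), as was Enpp2 (6.36 against 45.8 CPM, from 3 UMIs). In osteoblast nuclei Bmp1, a protease that trims procollagen, was the 1 gene that was higher (524 against 227 CPM). Nt5e (15.2 against 294 CPM), Enpp3 (0.912 against 18.8 CPM, from 3 UMIs), Enpp2 (10.3 against 77.5 CPM) and Itgb3 (3.34 against 24.98 CPM) were lower. Reticular nuclei had more Enpp3 (44.0 against 3.51 CPM) and Fam20a (130 against 16.1 CPM), and less Galnt3, the enzyme that glycosylates Fgf23 (4.19 against 60.2 CPM), and Cd44 (70.2 against 277 CPM). Intermediate nuclei had more Itgb3 (68.2 against 11.7 CPM) and Enpp3 (42.6 against 8.31 CPM), less Nt5e (21.3 against 155 CPM), and 0 UMIs of the acid sphingomyelinase Smpd1 (interval up to 15.7 CPM), against 14.99 CPM in the other classes, a difference within counting error.

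The pattern of each member over 10 classes, the 6 skeletal and 4 blood ones, was compared with that of 2083 genes by Pearson's r on log2 levels, as a description over classes that share one library. Smpd3 was most like Kcnma1 (0.96) and Slc8a3 (0.95), Alpl like Myo6 (0.92) and Tbrg1 (0.91), Enpp1 like Pmepa1 (0.95) and Capn2 (0.95), and Ank like Plpp1 (0.82). Slc20a1 was most like Ubn1 (0.92), Slc20a2 like Arl15 (0.85), Ibsp like Cdkn1a (0.94), Spp1 like Ptgis (0.91) and Fam20c like Cd109 (0.94). Phospho1, which gave too few molecules for a pattern over classes, reached at most 0.63 (Pde4d). Bhlhe40 was among the 3 most alike for both Enpp1 (0.92) and Fam20c (0.93). Among the members themselves the closest pairs were Ibsp and Spp1 (0.89), Enpp1 and Fam20c (0.82) and Alpl and Smpd3 (0.80), while Alpl and Ank had an r of -0.00.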

How the data were processed

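Femurs were dissociated, tdTomato+ cells were sorted and about 15000 nuclei were loaded. The deposited matrix holds raw counts that the authors made with Cell Ranger on mm10, UMIs per gene and ATAC counts per peak for every barcode, and a separate peak list served as an alternative. Barcodes with at least 500 UMIs and 1000 ATAC counts were kept, and 174 were removed as doublets by score, since Scrublet's own threshold called 2. Free RNA came from 62603 barcodes with 100 to 400 UMIs, and Gm42418 made up 61.0% of it and 30.8% of the UMIs of nuclei. A nucleus joined a class when enough of its markers exceeded what free RNA gives (Poisson, p under 0.05). The minimum was 2 of 5 markers for hypertrophic, 4 for chondrocyte and 3 for osteoblast, osteocyte and reticular nuclei. Intermediate nuclei needed 2 osteoblast and 2 reticular markers. These numbers were set after the data were examined, and the members and lists were chosen with earlier results of these data known. At the minimum stood 30 of 35 hypertrophic, 38 of 46 intermediate (on either list), 167 of 516 osteoblast, 135 of 448 reticular, 19 of 65 osteocyte and 19 of 102 chondrocyte nuclei.

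Summed UMIs and ATAC counts have exact Poisson intervals, whereas for shares they are exact binomial. Ratios to the other 5 classes had 0.5 counts added to both sums, and thresholds of size replaced tests. Leiden clusters (scanpy 1.11.5, leidenalg 0.10.2) left out the members and the list of 32 genes. Starts are those of the deposited gene list, with the strand taken from GENCODE models on GRCm38. The deposited start lay within 1 kb of the model start for 96.3% of genes with a model. The peaks shown had the largest ratio in the class named. RefSeq promoters matched 8 of 10 members. From the list, the genes named were the 4 furthest from 0 in each class, and Bmp1 because it was the only one called higher. Code was tested on simulated data (Python 3.11.15, numpy 2.4.6, scipy 1.17.1).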

Additional observations from a re-analysis of the deposited data

Results flagged for a closer look

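Phospho1 also appeared in nuclei that no comparison used. The 2562 nuclei that met no marker rule held 27 of its 48 UMIs, which is 6.30 CPM (4.15 to 9.17), against 1.41 CPM in blood nuclei (0.171 to 5.09). The level was not separable from the 5.17 CPM of osteoblast nuclei (3.01 to 8.28), since the intervals overlapped.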

How the results depend on the processing

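Of the 30 RNA calls, all 30 were kept with a minimum of 1000 UMIs, more doublets removed, CPM of all UMIs, free RNA subtracted, no count minimum, or Gm42418 left out of the denominator. With equal weight for the other classes, or without a member's UMIs from its top nucleus in each class, 29 were kept. Class totals still held all UMIs of those nuclei. The exclusions of Gm42418 and of UMIs from top nuclei, and the clustering of the list of 32 genes, were chosen after the data were seen. Limits of 10% and of 20% mitochondrial UMIs and clusters in place of gates each kept 25, a stricter gate 27 and a 3-fold threshold 18. Members that were higher, 10 over all classes, numbered 18 by clusters, and members that were lower, 20, numbered 11 at 3-fold. The list of 32 genes gave 14 higher at 3-fold, against 24 at 2-fold. The shares of all genes called were not computed at these other settings, so the counts are not read as results about the members. Signs turned for Ibsp in chondrocyte nuclei (0.49 at 10% mitochondrial UMIs, 0.27 by clusters, -1.06 as reported), Slc20a1 in intermediate (0.064 by clusters, -1.10 as reported), and, by clusters, Alpl (-0.998) and Ank (1.93) in hypertrophic nuclei. The cluster values rest on other nuclei, 46 in place of 35 for the hypertrophic class and 476 in place of 46 for the intermediate one. Slc20a1 and Slc20a2 in osteoblast nuclei were not called at 10% mitochondrial UMIs (-0.90 and -0.72).

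The windows depended more on their width. The 9 more accessible windows numbered 17 at 10% mitochondrial UMIs, 5 with equal weight, 4 over the gene with 3 kb upstream and 2 at 2-fold, and the 9 less accessible ones 3 at 2-fold. Over the gene with 3 kb upstream the Slc20a1 window in chondrocyte nuclei turned to -0.19 from 0.64, and Fam20c (0.41) and Ibsp (0.21) in osteocyte nuclei were no longer called; the sharpest Slc20a1 and Fam20c peaks lie farther upstream. The 150 single peaks called became 105 at 3-fold. The shares of all windows and peaks called were not computed at these other settings either.

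No paired analysis was possible because the series holds 1 library of each kind. Without replicate libraries the intervals leave out variation between animals. The smallest classes limit precision: 3 counts equal 6.44 CPM in hypertrophic, 6.36 in osteocyte and 12.8 CPM in intermediate nuclei. The share of free RNA within each class was not estimated beyond the subtraction above.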

Other observations

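Nuclei outside the 6 classes also carried several members. Erythroid nuclei had Slc20a1 at 220 CPM (173 to 276) and Ank at 308 CPM (252 to 373), with the Slc20a1 window at 282 CPM of ATAC counts, the highest of the 10 gated classes, and the Ank window at 174 CPM, also the highest. Macrophage or osteoclast nuclei had Fam20c at 105 CPM (79.6 to 137), while granulocyte nuclei had 14.3, B-lymphoid 4.88 and erythroid nuclei 2.93 CPM. By cluster, the periosteal fibroblast cluster had Alpl at 256 CPM and Ank at 151 CPM, and the cluster with osteoblast and reticular markers had Alpl at 465 CPM, Spp1 at 5970 CPM and Slc20a2 at 262 CPM. These are values of 1 library with counting error only.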
